A study of Mus musculus with 6 samples.

Results

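The 7 genes described here encode RNA-binding proteins that shorten the life of inflammatory mRNAs. They are the regnase genes Zc3h12a and Zc3h12c, the tristetraprolin genes Zfp36, Zfp36l1 and Zfp36l2, and the roquin genes Rc3h1 and Rc3h2. They were chosen by symbol from the 55401 genes of the count table, and all 7 had enough counts to be tested. Their mRNA was measured by RNA-seq in CD11b-selected brain cells of MRL/lpr and MRL/mpj mice, with 3 libraries per strain. MRL/lpr mice carry lpr, a mutation of the death receptor gene Fas, and develop lupus-like disease, while MRL/mpj mice are the control strain without the mutation. Mice of both strains were 6 weeks old and untreated. Per the study's methods, brains were perfused, minced and digested with collagenase and DNase at 37°C, and microglia were enriched on Percoll and taken with magnetic beads against CD11b, a surface protein that microglia share with other myeloid cells. The comparison asks how the microglial transcriptome of lupus-prone mice differs from that of their controls at an early age.

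Regnase-1, the product of Zc3h12a, is an endonuclease that cuts stem-loops in the 3′ UTR of mRNAs such as Il6, and its relative from Zc3h12c is known from macrophages. Tristetraprolin and its relatives hold a pair of CCCH zinc fingers that bind AU-rich elements, and they recruit the CCR4-NOT complex, which removes the poly(A) tail. The roquins bind stem-loops and bring the same deadenylase. In myeloid cells these proteins act as brakes on cytokine output, and several of their own mRNAs are induced by the stimuli that induce their targets.

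The AU-rich element that tristetraprolin prefers is the nonamer TTATTTATT, written here as DNA. It is shown here because the decay factors divide by it. In the longest annotated 3′ UTR of each gene in GENCODE M21, 5 of the 7 decay factors held the nonamer, namely the 3 tristetraprolin genes and both roquin genes, each with 1 copy. Neither regnase gene held it, although their 3′ UTRs had 3 and 14 copies of the shorter ATTTA. Among 14813 tested genes with an annotated 3′ UTR, 8.18% held the nonamer. The median 3′ UTR of these genes was 1163 bases, and a longer one has more places for a match. The 3′ UTRs of the 5 decay factors with the nonamer ran from 774 bases in Zfp36 to 7181 in Rc3h1. Those of Zc3h12a and Zc3h12c had 856 and 4062 bases. A match is a run of letters and not a measured binding site. The stretches below are 30 bases each, 5′ to 3′ on the strand of the gene, with the nonamer in capitals, from GRCm38. They lie at chr7:28376950-28376979, chr12:80108166-80108195, chr17:84184913-84184942, chr1:160970043-160970072 and chr2:37373286-37373315, in the order of the lines, and the first 3 and the last are on the minus strand.
Zfp36: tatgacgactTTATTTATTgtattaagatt
Zfp36l1: aactgttggaTTATTTATTttagaaattct
Zfp36l2: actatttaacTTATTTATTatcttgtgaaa
Rc3h1: actttactcaTTATTTATTgagatgaggag
Rc3h2: caaagacattTTATTTATTttactctgtaa

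Known targets of these proteins carry the element more densely in some cases. Of 20 mRNAs listed as reported targets, 8 held the nonamer in the longest 3′ UTR. Tnf, the classical target of tristetraprolin, held 5 copies, and Csf2 and Cxcl2 held 4 each. The stretches of Tnf at chr17:35199681-35199710 on the minus strand, Cxcl2 at chr5:90905336-90905365 on the plus strand and Ptgs2 at chr1:150105790-150105819 on the plus strand show overlapping and single copies, with each base of a nonamer in capitals.
Tnf: ttaTTATTTATTATTTATTTATTATTTATT
Cxcl2: atctatgtatTTATTTATTTATTaattcca
Ptgs2: ctgaccatatTTATTTATTtatgtgaagaa

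Total counts ran from 45481609 to 49846634 per library, and counts piled up at 4, so a low count can stand for fewer read pairs. The mitochondrial share of the counts was 3.06% to 3.49% in MRL/lpr and 5.84% to 6.38% in MRL/mpj. MRL/lpr replicate 3 stood apart, with 6.38% of its counts in CT010467.1, and MRL/lpr replicate 2 had 2819 CPM (the count scaled to library size with the TMM method) of the microglial gene Cx3cr1 against 226 and 247 CPM in the other MRL/lpr libraries. Fas counts ran from 282 to 461 in MRL/lpr and from 362 to 432 in MRL/mpj, and these counts do not tell mutant from intact transcripts. Xist, made from the inactive X chromosome of female cells, was at 213 to 240 CPM in the MRL/lpr libraries and 0.519 to 0.76 CPM in the MRL/mpj libraries, while 4 Y-linked genes (Ddx3y, Kdm5d, Eif2s3y and Uty) summed to 201 to 292 CPM in each of the 6 libraries. The study's methods describe female mice and the labels give no sex, so strain and sex makeup cannot be told apart in these libraries. The 10 microglia markers were all tested and summed to 22803 to 25368 CPM in the MRL/lpr libraries and 25346 to 26055 CPM in the MRL/mpj libraries. In bulk RNA, fewer cells of a type and less RNA per cell cannot be told apart.

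In the MRL/lpr libraries, 4 of the 7 decay factor mRNAs were called higher and 0 lower, at a Benjamini-Hochberg adjusted p under 0.05 in edgeR's quasi-likelihood test. These 4 were both regnases, Zc3h12a and Zc3h12c, and Zfp36 and Zfp36l1 of the tristetraprolin genes. Among all 19554 genes tested, 11.1% were called higher and 9.06% lower. At an unadjusted p under 0.05, 5 decay factors were higher and 1, Rc3h2, was lower. The share of all tested genes at that unadjusted threshold was not counted, here or for the lists below. DESeq2 and limma on FPKM each called 4 decay factors higher and 0 lower. Zc3h12a, Zc3h12c and Zfp36l1 also had a log2 fold change of at least 1, where 4.67% of the tested genes were called higher. The MRL/lpr and MRL/mpj values did not overlap in 6 of the 7 genes, with 5 higher and 1 lower in the MRL/lpr libraries, against 19.6% and 19.4% of the tested genes. The median log2 fold change was 0.73 over the 7 genes and -0.01 over all genes tested. Scaled by library size alone, the median over all genes was -0.13, and 1634 genes were called higher and 2790 lower, against 2178 and 1772 with TMM scaling, so that 36.9% of the calls and not 55.1% were higher. The 4 rises held under that scaling too.

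**Figure D1:**
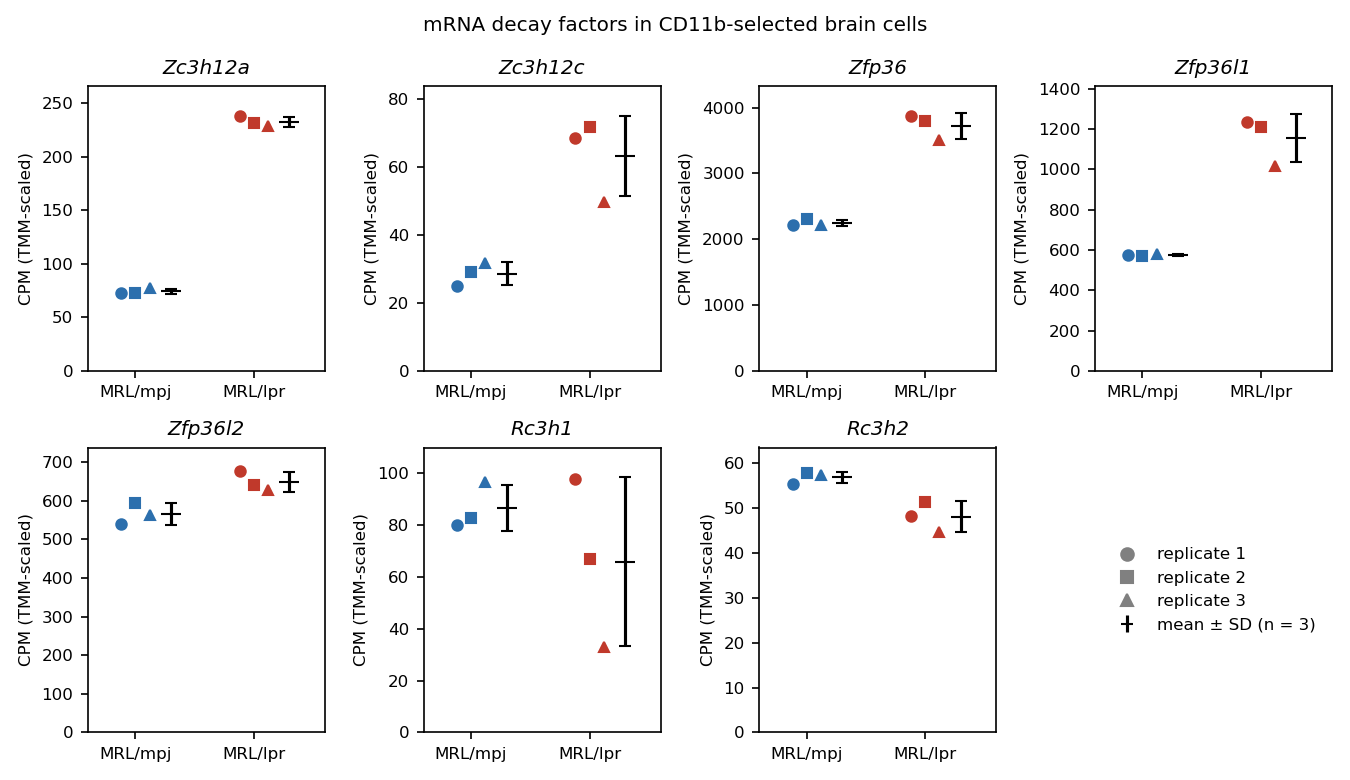
Level of each decay factor in each library, in CPM scaled with TMM, on axes that start at 0. Blue points are the 3 MRL/mpj libraries and red points the 3 MRL/lpr libraries, with a symbol for each replicate number, and the black bars are the mean ± SD (n = 3). The strains are apart in every panel except that of Rc3h1, where the MRL/lpr libraries spread from 32.8 to 97.9 CPM.

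Zc3h12a (ENSMUSG00000042677, chr4:125118423-125127840 on the minus strand, GRCm38) rose most among the decay factors. It had 238, 231 and 228 CPM in MRL/lpr replicates 1 to 3 and 73.1, 72.6 and 77.0 CPM in MRL/mpj replicates 1 to 3. The groups were far apart, and each was tight. The mean was 232 ± 5.01 CPM (SD, n = 3) against 74.3 ± 2.40 CPM (SD, n = 3), a 3.13-fold difference. The log2 fold change was 1.65 (SE 0.06, 95% confidence interval 1.5 to 1.79), with an edgeR adjusted p of 4.66e-07. Of all tested genes, 96.1% had a lower log2 fold change. With each library left out in turn it stayed between 1.63 and 1.67.

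The 250 bases before the RefSeq start of Zc3h12a (GRCm38.p6, chr4:125127882-125128131, minus strand) are shown because this is the gene that rose most. They were 66.4% G or C and held none of 6 motifs searched on both strands, which says only that these letters are not in this window. The motifs were the AP-1 site TGANTCA, the cAMP response element TGACGTCA, the GAS element TTCNNNGAA, the ISRE core GAAANNGAA, the NF-kB site and the CArG box. Of 32851 RefSeq windows of this length, 6.75%, 1.55%, 7.02%, 7.13%, 7.25% and 1.47% held them in that order.
Zc3h12a: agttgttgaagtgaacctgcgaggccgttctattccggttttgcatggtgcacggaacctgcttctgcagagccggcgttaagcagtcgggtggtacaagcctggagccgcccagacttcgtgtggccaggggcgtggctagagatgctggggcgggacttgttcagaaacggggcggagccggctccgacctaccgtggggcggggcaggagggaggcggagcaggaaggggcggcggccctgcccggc

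Zc3h12c (ENSMUSG00000035164, chr9:52111344-52168572, minus strand) encodes the related regnase-3. Its values were 68.5, 71.7 and 49.8 CPM in the MRL/lpr libraries and 25.1, 29.2 and 31.7 CPM in the MRL/mpj libraries. MRL/lpr replicate 3 was the lowest of its strain and still above each control. This was a 2.21-fold difference, or 1.14 on the log2 scale (SE 0.15, 95% confidence interval 0.81 to 1.48, edgeR adjusted p = 0.000565), and it ran from 1.04 to 1.30 with each library left out. A second RefSeq start lies within the gene. The window before the upstream start held an NF-kB site 236 bases before it, at the edge of the 250 bases searched.

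Zfp36 (ENSMUSG00000044786, chr7:28376784-28380253, minus strand), which encodes tristetraprolin, was the most abundant of the 7 mRNAs. It reached 3874, 3799 and 3503 CPM in the MRL/lpr libraries and 2219, 2306 and 2223 CPM in the MRL/mpj libraries. All 3 MRL/lpr values were above the controls. The mean of 3725 ± 196 CPM (SD, n = 3) was 1.66-fold that of 2250 ± 49.2 CPM (SD, n = 3). On the log2 scale the change was 0.73 (SE 0.06, 95% confidence interval 0.59 to 0.86, edgeR adjusted p = 3.15e-05) and ran from 0.70 to 0.77 with each library left out. The antisense gene Gm44710 shares 125 exon bases with Zfp36 and had 6 to 34 counts per library, against at least 114065 counts of Zfp36.

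Zfp36 is widely known as an immediate-early gene, transcribed within minutes of a stimulus. The 250 bases before its RefSeq start held a CArG box, the element bound by serum response factor, 58 bases before the start, and a GAS element 17 bases before it. The 30 bases around each are shown because Zfp36 was the only decay factor with either motif among the 6 with a window. They lie at chr7:28379267-28379296 and chr7:28379229-28379258 (GRCm38.p6, minus strand), with the motif in capitals. GENCODE M21 places an exon of Zfp36 further upstream, so these bases are also transcribed in one annotated form.
Zfp36 CArG box: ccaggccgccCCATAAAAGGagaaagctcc
Zfp36 GAS element: gccacagcctgacTTCTGCGAAccgacagt

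Zfp36l1 (ENSMUSG00000021127, chr12:80107754-80113013, minus strand) rose 2.01-fold. Its values were 1234, 1211 and 1017 CPM in the MRL/lpr libraries and 577, 568 and 580 CPM in the MRL/mpj libraries. The controls lay close together, and MRL/lpr replicate 3 was again the lowest of its strain. Its log2 fold change was 1.0 (SE 0.08, 95% confidence interval 0.83 to 1.18, edgeR adjusted p = 2.41e-05), and it ran from 0.95 to 1.09 with each library left out, so the fold minimum falls inside its error. The lincRNA Gm26669 lies antisense to Zfp36l1 over 1672 exon bases and is no row of the count table. The kit keeps the strand, but the strand setting of the counting is not given in the sources used here, so reads of this pair cannot be told apart. The pseudogene Zfp36l1-ps had at most 28 counts in a library.

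The window before the RefSeq start of Zfp36l1 (GRCm38.p6, chr12:80113014-80113263, minus strand) is shown for its AP-1 site, in capitals, 129 bases before the start. It was 48.4% G or C, the lowest share among the decay factor windows except for 1 at the second start of Zc3h12c. Rc3h1, which was not called, had an AP-1 site as well, 133 bases before its start, and its stretch at chr1:160906266-160906295 on the plus strand is set beside it. Of the 7 genes, 6 had a RefSeq window, and Zfp36l2 did not.
Zfp36l1: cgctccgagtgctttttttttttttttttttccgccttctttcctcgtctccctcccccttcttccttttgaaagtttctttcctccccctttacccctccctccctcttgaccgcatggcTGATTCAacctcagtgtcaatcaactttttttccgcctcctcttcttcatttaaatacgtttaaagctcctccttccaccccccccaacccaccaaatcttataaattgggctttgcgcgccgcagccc
Rc3h1: cgttggggccggTGACTCAgagctttcctc

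Zfp36l2 (ENSMUSG00000045817, chr17:84183931-84187947, minus strand), the third tristetraprolin gene, did not pass the test. It had 677, 641 and 629 CPM in the MRL/lpr libraries and 540, 595 and 564 CPM in the MRL/mpj libraries. The MRL/lpr values were all above the controls in CPM, while the FPKM values of the groups overlapped. The log2 fold change was 0.20 (SE 0.06, 95% confidence interval 0.06 to 0.34, edgeR adjusted p = 0.054). It was called in 3 of 15 alternative fits, among them the fit without MRL/lpr replicate 3, which gave 0.22 (adjusted p = 0.0114). The interval ended below that of Zfp36, the lower of its called relatives.

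Rc3h1 (ENSMUSG00000040423, chr1:160906418-160974978, plus strand), which encodes roquin-1, varied more within the MRL/lpr strain than between the strains. Its values were 97.9, 66.9 and 32.8 CPM in the MRL/lpr libraries and 79.9, 82.8 and 96.7 CPM in the MRL/mpj libraries. MRL/lpr replicate 1 was the highest and replicate 3 the lowest of all 6 libraries. The strains differed by -0.39 on the log2 scale (SE 0.41, 95% confidence interval -1.44 to 0.66, edgeR adjusted p = 0.594). Leaving out MRL/lpr replicate 3 gave -0.06 and leaving out MRL/lpr replicate 1 gave -0.79, so the size of the difference hung on single libraries. The interval included both directions, and no strain difference was detectable with these libraries.

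Rc3h2 (ENSMUSG00000075376, chr2:37370069-37422903, minus strand), which encodes roquin-2, had the lowest FPKM, a rank that in MRL/mpj depends on the length used. Its values were 48.3, 51.4 and 44.6 CPM in the MRL/lpr libraries and 55.3, 57.7 and 57.4 CPM in the MRL/mpj libraries. Each MRL/lpr value was below the controls. The log2 fold change was -0.24 (SE 0.08, 95% confidence interval -0.43 to -0.05, edgeR adjusted p = 0.0746). With scaling by library size only it was -0.36 (adjusted p = 0.0244 from edgeR), the only 1 of 15 alternative fits that called it.

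**Figure D2:**
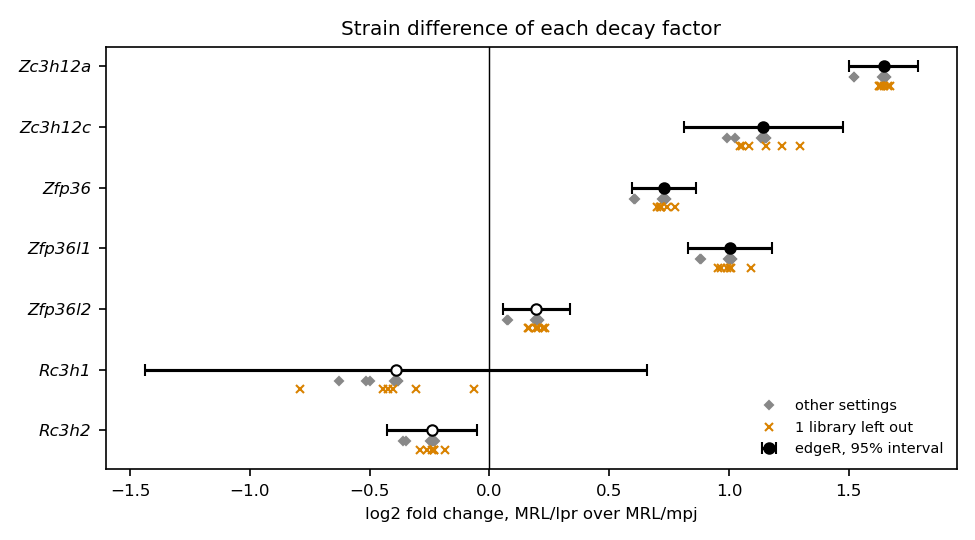
Log2 fold change of each decay factor, MRL/lpr over MRL/mpj, with its 95% confidence interval from edgeR (black, filled where the adjusted p was under 0.05 and open where it was not), the other settings of the analysis (grey diamonds) and the fits without 1 library (orange crosses). The intervals of Zc3h12a, Zc3h12c, Zfp36 and Zfp36l1 lie above 0, and the interval of Rc3h1 runs from -1.44 to 0.66.

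Levels were compared between genes in FPKM, which divides by length. The mean ratios within families were nearly the same from counts per kilobase of all annotated exons, so FPKM appears to divide by that length. It was 2882 bases for Zc3h12a, 3470 for Zfp36 and 19624 for Rc3h2. The transcripts present can be shorter, so the order and the ratios between genes depend on the annotation. In the MRL/mpj libraries the order was Zfp36 at 603 ± 13.5 FPKM (SD, n = 3), Zfp36l1 at 179 ± 1.94, Zfp36l2 at 149 ± 7.39, Zc3h12a at 24.0 ± 0.776, Rc3h1 at 7.04 ± 0.737, Zc3h12c at 3.89 ± 0.45 and Rc3h2 at 2.69 ± 0.0608 FPKM. No neighbours in this order overlapped. In the MRL/lpr libraries the order was Zfp36 at 920 ± 76.4 FPKM (SD, n = 3), Zfp36l1 at 331 ± 44.0, Zfp36l2 at 157 ± 10.2, Zc3h12a at 69.0 ± 3.42, Zc3h12c at 7.94 ± 1.70, Rc3h1 at 4.98 ± 2.55 and Rc3h2 at 2.10 ± 0.208 FPKM. Zc3h12c and Rc3h1 traded places, and their MRL/lpr values overlapped, at 5.99 to 9.12 and 2.37 to 7.47 FPKM. The 3 tristetraprolin genes led the order and Rc3h2 closed it in both strains. In CPM, which does not divide by length, the mean of Rc3h2 was above that of Zc3h12c in MRL/mpj (56.8 against 28.7). In MRL/lpr the mean of Rc3h2 was the lowest of the decay factors in CPM as well (48.1, against 63.3 for Zc3h12c). Only in MRL/mpj does the last place of Rc3h2 rest on the length used.

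**Figure D3:**
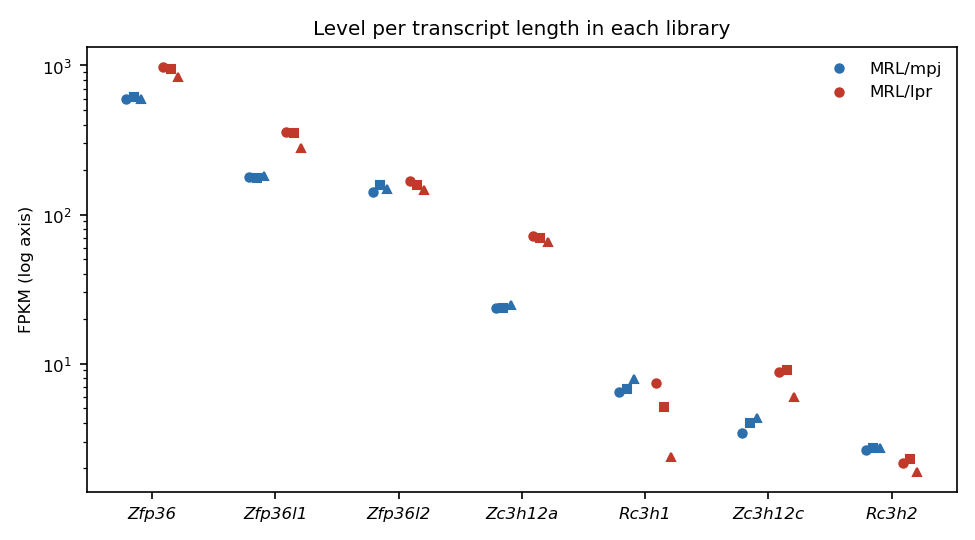
Level of each decay factor per length of its annotated exons, in FPKM on a log axis, in the 3 MRL/mpj libraries (blue) and the 3 MRL/lpr libraries (red), ordered by level. Zfp36 lies between 595 and 973 FPKM and Rc3h2 between 1.87 and 2.73 FPKM, and the strains overlap for Zfp36l2 and Rc3h1.

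Ratios between relatives within a library do not depend on the scaling between libraries. The log2 ratio of Zfp36l1 to Zfp36l2 was 1.11, 1.16 and 0.93 in the MRL/lpr libraries and 0.34, 0.17 and 0.28 in the MRL/mpj libraries, so Zfp36l1 stood at 2.09-fold and 1.20-fold the level of Zfp36l2 in FPKM. The ratio of Zfp36 to Zfp36l2 was 2.55 ± 0.04 (SD, n = 3) against 2.02 ± 0.04 on the same scale. The ratio of Zfp36 to Zfp36l1 went the other way, at 1.48 ± 0.08 against 1.75 ± 0.05. The ratio of Zc3h12a to Zc3h12c was 3.14 ± 0.27 against 2.63 ± 0.14. The strains did not overlap in these 4 ratios, each with p = 0.1 from an exact two-sided permutation test over the libraries, which is the smallest value that 3 against 3 can give, and an adjusted p of 0.125 over 5 ratios. Rc3h1 to Rc3h2 overlapped, with an exact permutation p of 0.7. As a share of the summed FPKM of the 3 tristetraprolin genes, Zfp36 had 65.4% ± 0.643 (SD, n = 3) against 64.8% ± 0.297, Zfp36l1 had 23.4% ± 1.03 against 19.2% ± 0.573, and Zfp36l2 had 11.2% ± 0.429 against 16% ± 0.482 in the MRL/mpj libraries.

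Tristetraprolin is phosphorylated through the p38 kinase (Mapk14) and MK2 (Mapkapk2), which stabilises the protein and lowers its activity, and the phosphatase Dusp1 acts against p38. Of 6 upstream regulators, edgeR called 3 higher and 0 lower, against 11.1% and 9.06% of all tested genes. In these regulators 0 were lower also at an unadjusted p under 0.05, in DESeq2 and in limma. Their median log2 fold change was 0.52. Mapk14 had 216, 229 and 234 CPM in the MRL/lpr libraries against 125, 84.6 and 78.5 CPM in the MRL/mpj libraries, a log2 rise of 1.24 (SE 0.17, edgeR adjusted p = 0.00186). Mapkapk2 had 428, 434 and 407 CPM against 189, 190 and 192 CPM, a log2 rise of 1.15 (SE 0.06, edgeR adjusted p = 1.97e-06). The groups of Mapkapk2 were far apart and each was tight. Dusp1 rose by 0.85 on the log2 scale. Malt1, the protease that cleaves regnase-1 and the roquins, had 40.3, 50.4 and 40.7 CPM in the MRL/lpr libraries and 58.6, 60.0 and 33.5 CPM in the MRL/mpj libraries, where replicate 3 was the lowest of all 6. Its log2 fold change was -0.21 (SE 0.23, edgeR adjusted p = 0.593), and without MRL/mpj replicate 3 it was called at -0.44 (SE 0.12, edgeR adjusted p = 0.0492). Ikbkb, the kinase subunit that marks regnase-1 for breakdown, and Irak1 had log2 fold changes of 0.18 and 0.09 and were not called. Malt1, Ikbkb and Irak1 complete the list and were named after their values were seen. These are mRNA levels, and the phosphorylation and the amount of the proteins were not measured.

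Among 7 other proteins that bind AU-rich or stem-loop elements, 1 was higher and none lower, a share near the 11.1% of all tested genes called higher, with a median log2 fold change of 0.03. The 1 was Arid5a, which is known to protect Il6 mRNA from regnase-1. It had 62.0, 70.1 and 82.1 CPM in the MRL/lpr libraries against 41.9, 38.9 and 44.5 CPM in the MRL/mpj libraries, a log2 rise of 0.77 (SE 0.11, edgeR adjusted p = 0.00111). The remaining paralogs, Zc3h12b, Zc3h12d and Zfp36l3, had log2 fold changes of -0.18, 0.87 and -1.07 at levels of at most 5.19 CPM in a library, and none was called by edgeR, DESeq2 or limma or had an unadjusted p under 0.05.

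Of 48 genes for deadenylation, decapping and exosome decay, edgeR called 3 higher and 1 lower, against 11.1% and 9.06% of all tested genes, and their median log2 fold change was 0.00, against -0.01 over all genes. The 2 higher among 17 deadenylase genes were the adaptors Btg2, at 1.15 (edgeR adjusted p = 5.46e-06), and Btg1, at 0.66. Neither is a catalytic subunit, and Btg2 is known as an early response gene. Of 16 decapping genes, Patl1 was higher at 0.36 (edgeR adjusted p = 0.0182) and the helicase Ddx6 was lower at -0.31 (edgeR adjusted p = 0.0435). Patl1 lost its call in 8 and Ddx6 in 7 of 15 alternative fits, in both genes with each library left out except MRL/lpr replicate 3, and the adjusted p reached 0.15 for Patl1 (limma on FPKM) and 0.137 for Ddx6 (edgeR without MRL/mpj replicate 3). None of 15 exosome genes was called by edgeR, DESeq2 or limma, and 1 had an unadjusted p under 0.05. Cnot1, the scaffold of the CCR4-NOT complex that tristetraprolin recruits, was at 169 to 197 CPM in the MRL/lpr libraries and 175 to 186 CPM in the MRL/mpj libraries, and differed by 0.02 on the log2 scale (SE 0.07, edgeR adjusted p = 0.868). Cnot1 is named for its place in the complex and was chosen after its values were seen.

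Many mRNAs described as targets of these proteins were higher alongside them. Of 20 listed targets, 18 were tested, and edgeR called 12 higher and 0 lower, against 11.1% and 9.06% of all tested genes. At an unadjusted p under 0.05, 0 were lower as well. DESeq2 called 12 higher and limma on FPKM 10. Their median log2 fold change was 0.78, and 7 were past a log2 fold change of 1. The largest rises were those of Il6, Nfkbiz and Il10. Il6, which regnase-1 cuts, had 17.4, 20.0 and 12.1 CPM in the MRL/lpr libraries against 2.90, 3.56 and 3.65 CPM in the MRL/mpj libraries. The log2 rise was 2.29 (SE 0.21, edgeR adjusted p = 6.9e-05). Nfkbiz, a nuclear regulator of NF-kB and another regnase-1 target, had 2429, 2406 and 2015 CPM against 683, 699 and 688 CPM, a log2 rise of 1.73 (SE 0.08, edgeR adjusted p = 1.14e-06).

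Il10 was scarce, with 4.15, 3.14 and 2.37 CPM in the MRL/lpr libraries against 1.38, 1.18 and 0.75 CPM. The log2 rise was 1.54 (SE 0.34, edgeR adjusted p = 0.0113), and the call was lost without MRL/lpr replicate 1 (edgeR adjusted p = 0.0506). Tnf, whose 3′ UTR holds the run of overlapping nonamers shown above, had 560, 551 and 524 CPM in the MRL/lpr libraries against 222, 225 and 216 CPM, a log2 rise of 1.30 (SE 0.06, edgeR adjusted p = 1.1e-06). Ptgs2, the inducible cyclooxygenase, rose by 1.37 on the log2 scale, and Cxcl2 by 0.39. Cxcl2 and Ccl2, the weakest of the 12 at 0.39 and 0.44, lost their calls in 8 of 15 alternative fits, with adjusted p-values up to 0.157 and 0.177 (limma on FPKM). Tnf, Ptgs2, Cxcl2 and Ccl2 are named for their sequences or their stability, after their values were seen.

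Calls across all genes were also counted by the nonamer. Of 1212 tested genes with at least 1 nonamer, 14.5% were called higher and 11.3% lower in the MRL/lpr libraries, and of 13601 genes without it 12.3% and 10.7%. The median log2 fold changes were -0.05 and -0.03. Genes with the nonamer had longer 3′ UTRs, with a median of 2318.5 bases against 1082. Of 97 genes with at least 3 nonamers, 13.4% were higher and 10.3% lower. These shares are descriptions and were not tested against each other.

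**Figure D4:**
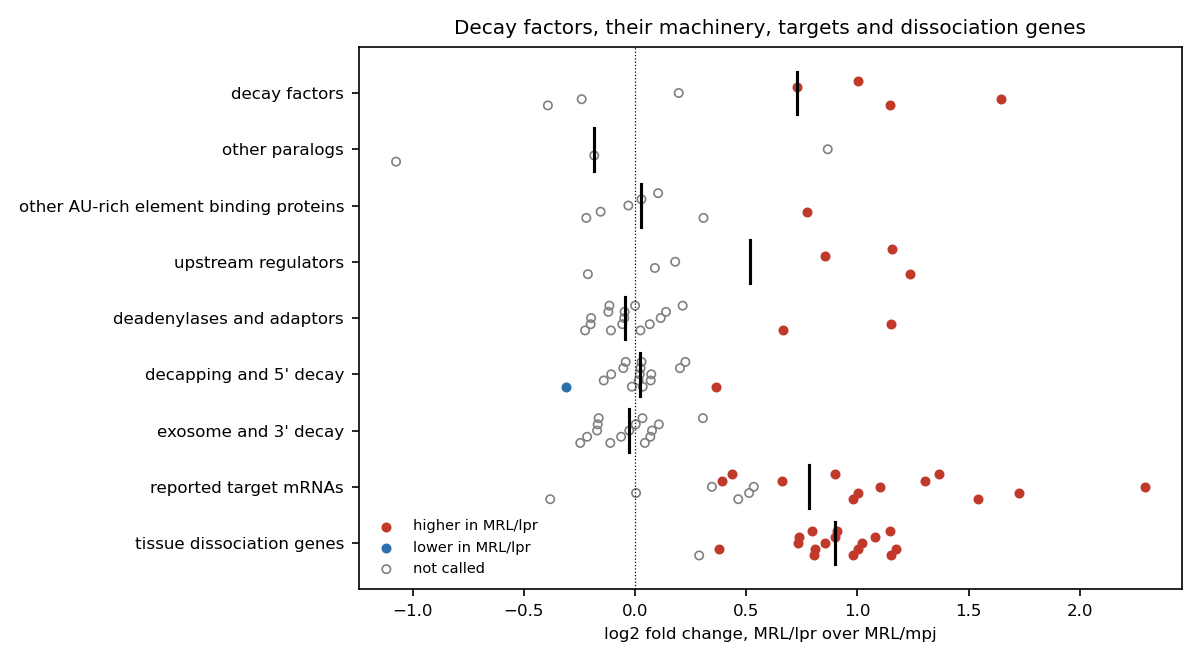
Log2 fold change, MRL/lpr over MRL/mpj, of each tested gene of the decay factors, their paralogs, other binding proteins, upstream regulators, the decay machinery, reported target mRNAs and tissue dissociation genes. Filled red and blue points are genes called higher and lower, open points are not called, and the black bar is the median of each list. The machinery lists centre on 0, while the medians of the decay factors, targets and dissociation genes are 0.73, 0.78 and 0.90.

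Genes induced by enzymatic tissue digestion at 37°C rose in the same libraries. Of 17 listed dissociation genes, edgeR called 16 higher and 0 lower, against 11.1% and 9.06% of all tested genes. DESeq2 also called 16 and 0 and limma on FPKM 15 and 0, and the median log2 fold change was 0.90. Ier2, Btg2 and Hspa1a rose most, by 1.17, 1.15 and 1.15 on the log2 scale. Hspa1a, an inducible heat shock protein gene, had 8508, 8445 and 7574 CPM in the MRL/lpr libraries against 3646, 3787 and 3637 CPM. Ier2, an early response gene, had 534, 510 and 562 CPM against 233, 250 and 230 CPM. In both genes the strains were apart, and MRL/lpr replicate 3 was the lowest of its strain in Hspa1a and the highest in Ier2. Dusp1 is also an upstream regulator, Btg2 a deadenylase adaptor and Ier3 a listed target, so the lists are not separate there. The part of the dissociation response in the values of the decay factors was not tested.

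Markers of some other cell types also moved between the strains. Of 6 T cell markers 5 were higher in the MRL/lpr libraries (Cd3e, Cd3g, Trac, Cd4 and Cd8a), and the list summed to 11.1 to 17.1 CPM against 2.50 to 2.92 CPM. Of 5 NK cell markers 3 were higher (Nkg7, Gzma and Prf1), and the list summed to 11.3 to 11.9 CPM against 3.12 to 4.06 CPM. Klrb1c and Ncr1 were not called, at -2.74 and 0.99 on the log2 scale, each with at most 1.58 CPM in a library. Among 5 plasma cell markers 2 were higher (Jchain and Mzb1), with Mzb1 at 0 in each MRL/mpj library. The plasma cell list summed to 119 to 137 CPM against 94.5 to 109 CPM. Most of this sum was Xbp1, with means of 104 and 89.7 CPM, which was not called. Sdc1 and Tnfrsf17 were not called either, at -0.04 and -0.39 on the log2 scale. Of 5 neutrophil markers 2 were higher (S100a8 and Ngp), and the list summed to 668 to 792 CPM against 532 to 598 CPM. Of 5 choroid plexus and ependyma markers 3 were lower (Ttr, Kl and Folr1), and the list summed to 339 to 354 CPM against 1006 to 1085 CPM. Of 5 neuron markers 2 were lower (Snap25 and Syt1), and the list summed to 10.3 to 13.7 CPM against 23.1 to 25.9 CPM. In the border macrophage, astrocyte and oligodendrocyte lists 1 of 5 markers each was lower. The astrocyte list summed to 96.8 to 139 CPM against 169 to 175 CPM. In the endothelium and erythrocyte lists 1 of 5 markers each was higher, and of 4 tested B cell markers 0 were called. The part of these cell types in the values of the decay factors was not tested.

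For each decay factor that passed the test, the genes most like it across the 6 libraries are named as a description, from 11121 tested genes with a mean of at least 5 CPM. The points share libraries, depth and the difference between the strains, and no p is given. Heatr5a and Alpk1 followed Zc3h12a with a Pearson r of 0.9999 and 0.9997 on the log2(CPM + 1) scale. Magohb and Cse1l followed Zc3h12c with 0.9989 and 0.9988, Rnf19b and Dnajb1 followed Zfp36 with 0.99997 and 0.9996, and Brd2 and Il1r2 followed Zfp36l1 with 0.9994 and 0.9991. Such values were common, since 168 genes for Zc3h12c and 386 to 479 for the other 3 had an r above 0.98.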

How the data were processed

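For each gene the authors deposited raw counts, not normalized, and FPKM values in each library. Per the labels, ribosomal RNA was removed from total RNA and libraries were made with a stranded kit. The submitters' processing notes name cutadapt 1.9.3, HISAT2 2.0.4, Cuffdiff 2.2.1, Cufflinks and GRCm38. The counting tool and its strand setting are not given in the sources used here. Symbols and positions came from GENCODE M21, which matched 55141 of 55401 identifiers, and promoter windows from RefSeq on GRCm38.p6.

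Counts were filtered with filterByExpr (minimum count 10, total 15), scaled with TMM and tested with edgeR 4.0.16 in R 4.3.3, quasi-likelihood with robust dispersions and Benjamini-Hochberg adjustment over 19554 genes, without covariates. FPKM served for levels between genes. Only the edgeR fit was tested on simulated counts, which had the same dispersion for every gene, below the common dispersion of these data. Alternatives were DESeq2 1.42.0, limma 3.58.1 on log2(FPKM + 0.1), other scalings and filters, dispersions that are not robust, counts divided by 4, a replicate block and each library left out. The study's methods name DESeq2. The paper gives 3 mice of each strain for these libraries, and the labels tie no library to an animal. Replicates differed beyond sampling noise, and no 2 libraries were identical.

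The decay factors and all lists were chosen with earlier results of these data known. Named were the decay factors, the 3 largest called rises and falls of each list, and the 2 genes most like each called decay factor. Others are said to be named after their values were seen. The monocyte markers are not reported here.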

Additional observations from a re-analysis of the deposited data

How the results depend on the processing

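The rises of Zc3h12a, Zc3h12c, Zfp36 and Zfp36l1 were called under each of 15 alternatives, with log2 fold changes of 1.52 to 1.67, 0.99 to 1.30, 0.61 to 0.77 and 0.88 to 1.09. No decay factor changed direction. Zfp36l2 was called at 0.21 among genes with a mean of at least 1 CPM (adjusted p = 0.0396 from edgeR) and at 0.21 with counts divided by 4 (adjusted p = 0.0385 from edgeR), and ran from 0.16 to 0.23 with each library left out, where 4 to 5 decay factors were called higher. With scaling by library size only, Rc3h2 was called at -0.36, which made 1 decay factor lower, 1 deadenylase gene and 1 exosome gene were lower, 0 decapping genes were higher, and 2790 of all genes were lower. On FPKM with limma 1 deadenylase gene was lower and 0 decapping genes were higher, and without robust dispersions 0 decapping genes were lower. With each library left out, 0 to 1 decapping genes were higher and 0 to 1 lower, 0 to 1 upstream regulators were lower (Malt1, the 1 called without MRL/mpj replicate 3), 9 to 13 targets were higher, and of all genes 1177 to 1971 were lower (1177 without MRL/mpj replicate 1). The cause of these changes was not tested.

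The libraries of the strains share replicate numbers only. The correlations of same-numbered deviations were -0.06, -0.03 and -0.08, and each library correlated least with its own number. With 3 libraries per strain, such values cannot settle whether the numbers pair the libraries. With a replicate block, 4 decay factors were called higher, Zc3h12a at 1.65 (adjusted p = 6.4e-05 from edgeR), 0 decapping genes were higher and 0 lower, and of all genes 1754 were higher and 1309 lower.

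Counts of the decay factors were at least 1291 per library, so the spread between libraries and not the depth limits their values, most of all for Rc3h1. Targets with few counts, such as Il10, rest on few read pairs, and Csf2 and Il2 were too low to be tested.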
